A study of Mus musculus with 29 samples.

Results

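The genes described here are Sprr1a, Ly6d, Cib3, Cpe, Obp2a and Moxd1, 6 of the 22180 genes measured. They were picked on these arrays for very large shifts after ligation of the bile duct and for a role in the liver that is not clear. Each gene is read by 1 row of the array, and all 6 were among the 14699 genes tested, those with a log2 value over 5 in 3 or more of the 29 arrays. Because the differences between ligated and sham livers chose the genes, those differences are given below as descriptions, without a test.

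Liver RNA came from male C57BL/6N mice, marked wt (wild type) in every sample title, 8 to 10 weeks of age, kept on a standard diet. In one arm the extrahepatic common bile duct was tied off (bile duct ligation, BDL), which stops bile from reaching the gut, and in the other the mice had a sham operation. Each BDL group (days 1, 3, 7 and 21) consists of 5 arrays, and the sham groups consist of 3 (day 1), 2 (day 3) and 4 (day 7). No sham group of day 21 was analysed here, so BDL day 21 was set against sham day 7, where time since surgery and ligation cannot be told apart.

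Tying the duct raises bile pressure and bile acids in the liver, and duct cells multiply, macrophages gather and fibroblasts lay down collagen. None of the 6 genes is a standard marker of that response. Sprr1a encodes a small proline-rich protein that transglutaminases cross-link into the cornified envelope of squamous epithelium. Ly6d is a small surface protein of the Ly6 family, held in the membrane by a lipid anchor and used as a marker of early B-lineage and squamous cells. Cib3 is a calcium- and integrin-binding protein with EF hands, known mainly from sensory hair cells. Cpe, carboxypeptidase E, trims basic residues from the ends of peptide hormones in secretory granules. Obp2a, also called Lcn13, is a secreted lipocalin, a small barrel-shaped carrier of lipophilic molecules. Moxd1 is a monooxygenase of the endoplasmic reticulum that resembles the copper enzyme dopamine beta-hydroxylase, and its substrate is unclear.

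The sequence before the transcript start is shown for the gene with the greatest lasting shift, the gene with a transient shift and the gene that was lower, so that letters shared or not shared by these patterns can be seen. Windows of RefSeq assembly GRCm38.p6 were matched for 4 of the 6 genes (Sprr1a, Obp2a, Cib3 and Moxd1), and the 250 bases before the start are printed 5′ to 3′ on the strand of the gene. Capitals mark matches to TGANTCA (AP-1), TTCNNNGAA (STAT) or TATAAA (core promoter element) on either strand.
Sprr1a: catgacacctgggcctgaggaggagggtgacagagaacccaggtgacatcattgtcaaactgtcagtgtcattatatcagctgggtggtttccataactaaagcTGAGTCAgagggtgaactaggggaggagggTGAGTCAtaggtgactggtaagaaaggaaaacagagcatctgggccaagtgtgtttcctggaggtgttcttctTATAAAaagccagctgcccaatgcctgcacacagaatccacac
Obp2a: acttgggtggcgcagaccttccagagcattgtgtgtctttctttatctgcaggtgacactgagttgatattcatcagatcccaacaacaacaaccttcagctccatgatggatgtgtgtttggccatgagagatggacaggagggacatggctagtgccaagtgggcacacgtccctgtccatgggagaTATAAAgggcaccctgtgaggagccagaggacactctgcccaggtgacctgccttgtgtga
Moxd1: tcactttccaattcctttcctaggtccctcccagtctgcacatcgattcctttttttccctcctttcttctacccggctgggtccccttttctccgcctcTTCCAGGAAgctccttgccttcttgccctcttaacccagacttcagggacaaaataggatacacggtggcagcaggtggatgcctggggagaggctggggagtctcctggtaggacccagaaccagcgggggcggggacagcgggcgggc

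The Sprr1a window lies at chr3:92485882-92486131 on the minus strand. It holds the AP-1 letters in 2 places, beginning 146 and 116 bases before the start, and TATAAA beginning 43 bases before it. A further motif, TGACNNNGC of the antioxidant element, matches on the opposite strand from 148 bases before the start and overlaps the farther AP-1 match, so it is not capitalised. Of all 32851 windows of this length, 6.75% held an AP-1 match and 0.338% held 2 or more, while 10.2% held the antioxidant letters. The Obp2a window, chr2:25699824-25700073 on the plus strand, held TATAAA 61 bases before the start, as did 12.4% of windows anywhere; this start lies within the annotated span of the gene. The Moxd1 window, chr10:24223267-24223516 on the plus strand, held the STAT letters 150 bases before the start, which 7.02% of windows did. In the Cib3 window, chr8:72212838-72213087 on the minus strand, none of the 4 motifs was found. The annotated span of that gene runs to 72213086, so nearly all of the window lies within it. The bases before that span were not searched. These matches describe letters only.

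Some arrays stood apart from their groups in ways that touch these genes. Sham day 3 replicate 2 carried adrenal genes: of 18 measured genes of an adrenal list, put together after this array had been seen, 15 lay above all other 8 sham arrays. Star, which moves cholesterol into mitochondria for steroid synthesis, read 10.6 there and at most 6.08 in the other sham arrays, and Cyp11a1, which opens steroid synthesis, read 10.2 against at most 4.32. Sham day 7 replicate 1 had the highest collagen of the sham arrays, with Col1a1 at 10.4 against at most 7.38, and 10 of 15 stellate cell and fibroblast markers above the other 8. At day 1, sham replicates 1 and 3 and BDL replicates 2 and 3 had a narrower spread of log2 values (SD 1.55 to 1.58, against 1.64 to 1.70 elsewhere) and higher small nucleolar RNA (mean log2 value of 78 genes 8.86 to 9.29, against 7.61 to 8.37). The part of these features in the results was not tested; values without the arrays stand beside the results they move.

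**Figure D1:**
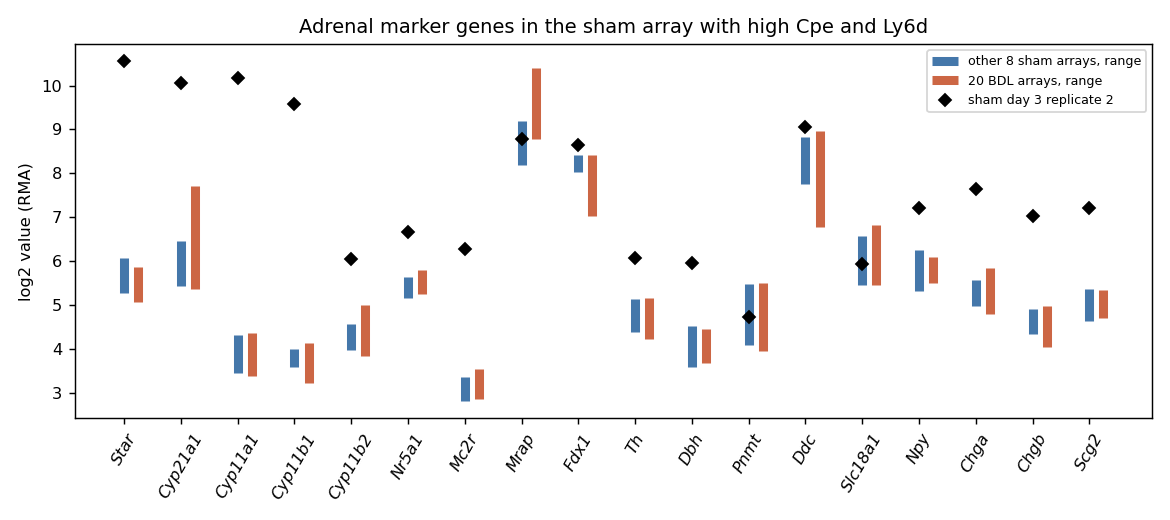
Log2 values of 18 adrenal marker genes in sham day 3 replicate 2 (diamonds), with the range of the other 8 sham arrays (blue bars) and of the 20 BDL arrays (orange bars). Star at 10.6 and Cyp11a1 at 10.2 in that array lie above every other array.

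Across the members, 3 were higher in BDL from day 1 to day 21 (Sprr1a, Ly6d, Cib3), Cpe was highest at day 21, Obp2a was highest at days 1 and 3, and Moxd1 was lower throughout. The arrays of BDL and sham did not overlap for 5 of the 6 genes on days 1, 7 and 21 each, and for 3 of 6 on day 3. Among all 14699 genes tested the share without overlap was 13.2%, 26.4%, 20.1% and 25% on days 1, 3, 7 and 21; since the genes were chosen by this contrast, nothing is read from the member counts. In whole liver, a change in the number of cells of a type and a change in RNA per cell cannot be told apart.

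**Figure D2:**
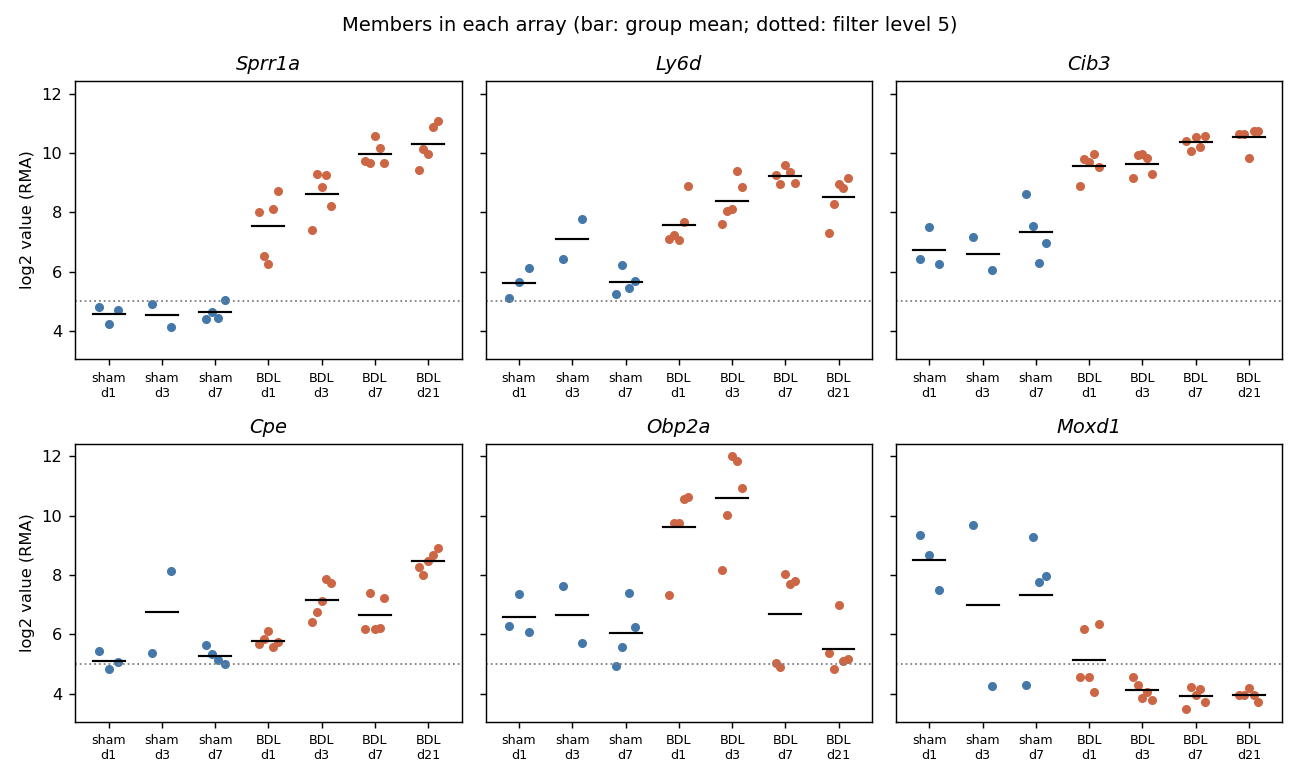
Log2 value (RMA) of each of the 6 genes in each of the 29 arrays, with sham in blue, BDL in orange, black bars for group means and a dotted line at the filter level of 5. Sprr1a rises from about the filter level in sham to a mean of 10.3 at BDL day 21, and Moxd1 drops to a mean of 3.95.

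Sprr1a had the greatest positive difference of all genes tested at days 7 and 21. Its log2 values in sham were 4.80, 4.23 and 4.72 at day 1, 4.93 and 4.13 at day 3, and 4.40, 4.64, 4.42 and 5.06 at day 7. In BDL they were 8.02, 6.52, 6.27, 8.12 and 8.72 at day 1 and 7.41, 9.31, 8.84, 9.25 and 8.22 at day 3. They reached 9.72, 9.68, 10.6, 10.2 and 9.67 at day 7 and 9.43, 10.1, 9.95, 10.9 and 11.1 at day 21. Every BDL array lay above every sham array, and 8 of the 9 sham arrays were under the filter level, where signal and background are hard to separate, so the size of the shift depends on the background.

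The Sprr1a difference on the log2 scale was 2.95 ± 0.45 (SE of the limma fit) at day 1, 4.08 ± 0.52 at day 3, 5.34 ± 0.42 at day 7 and 5.66 ± 0.42 at day 21, a 50.5-fold level at the last. Without the 4 day 1 arrays that stood apart the day 1 difference was 4.06, with a lone sham array assumed to vary like the other groups. The step from BDL day 3 to day 7, +1.36 ± 0.39, passed the test (adjusted p = 0.0362, limma), with all 5 day 7 arrays above all day 3 arrays. The step from day 1 to day 3, +1.08 ± 0.39, did not (adjusted p = 0.0541), nor did that from day 7 to day 21, +0.32 ± 0.39 (adjusted p = 0.954). These are the same arrays that entered the choice of genes. BDL day 1 replicates 2 and 3, which stood apart, were the lowest of their group at 6.52 and 6.27. The other day 1 arrays read 8.02 to 8.72, within the day 3 range of 7.41 to 9.31. The step from day 1 to 3 is thus smaller without replicates 2 and 3 of day 1. The call from day 3 to day 7 was lost when any 1 of 6 arrays was left out (BDL day 3 replicates 1, 3 and 5, BDL day 7 replicates 3, 4 and 5), with adjusted p from 0.0204 to 0.127 over the 10 leave-outs.

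Ly6d was low in sham liver, and its BDL means were higher at each day up to day 7. Sham arrays read 5.11, 5.67 and 6.12 at day 1, 6.42 and 7.79 at day 3, and 5.23, 6.23, 5.43 and 5.68 at day 7. BDL arrays read 7.11, 7.23, 7.05, 7.68 and 8.88 at day 1 and 7.60, 8.04, 8.10, 9.40 and 8.85 at day 3. They read 9.27, 8.94, 9.61, 9.36 and 8.98 at day 7 and 7.30, 8.29, 8.95, 8.82 and 9.16 at day 21. In the matched comparisons the groups overlapped at day 3 alone, where the sham array at 7.79 is the one with adrenal genes.

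The Ly6d difference was 1.96 ± 0.42 at day 1, 1.29 ± 0.48 at day 3, 3.59 ± 0.38 at day 7 and 2.86 ± 0.38 at day 21. Without sham day 3 replicate 2 the day 3 difference was 1.98, and without replicate 1 it was 0.61. No step between successive BDL days passed the test: +0.81 ± 0.36 from day 1 to 3 (adjusted p = 0.121), +0.84 ± 0.36 from day 3 to 7 (adjusted p = 0.191) and -0.73 ± 0.36 from day 7 to 21 (adjusted p = 0.635, limma). The mean of day 7, 9.23, was the highest, but its arrays overlapped with those of day 21. Leaving out BDL day 1 replicate 5, the highest of its group, brought the step from day 1 to 3 past the threshold (+1.13, adjusted p = 0.0207).

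Cib3 was high within a day of ligation. With all arrays kept, its difference from sham was of like size at all 4 days. Without arrays that stood apart the days were less even, as the values below show. Sham arrays read 6.42, 7.51 and 6.26 at day 1, 7.16 and 6.06 at day 3, and 8.61, 7.55, 6.29 and 6.95 at day 7. BDL arrays read 8.89, 9.81, 9.69, 9.96 and 9.53 at day 1 and 9.16, 9.95, 9.95, 9.84 and 9.28 at day 3. They read 10.4, 10.1, 10.5, 10.2 and 10.6 at day 7 and 10.6, 10.7, 9.85, 10.8 and 10.8 at day 21. All 20 BDL arrays lay above all 9 sham arrays, and the highest sham array, at 8.61, is the one with raised collagen.

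The Cib3 difference was 2.85 ± 0.36 at day 1, 3.03 ± 0.41 at day 3, 3.01 ± 0.33 at day 7 and 3.18 ± 0.33 at day 21, between 7.20-fold and 9.04-fold. Without sham day 7 replicate 1 it was 3.43 at day 7 and 3.60 at day 21. Without the 4 day 1 arrays that stood apart it was 1.95 at day 1. The step from BDL day 3 to day 7, +0.72 ± 0.31, did not pass (adjusted p = 0.19, limma), although no day 7 array overlapped day 3; fitted on those groups alone it did (adjusted p = 0.0223). The steps from day 1 to 3 (+0.06 ± 0.31, adjusted p = 0.915) and from day 7 to 21 (+0.17 ± 0.31, adjusted p = 0.98) were small beside their errors.

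Cpe was little above sham at day 1 and furthest above it at day 21. Sham arrays read 5.45, 4.83 and 5.07 at day 1, 5.38 and 8.14 at day 3, and 5.63, 5.33, 5.13 and 5.00 at day 7. BDL arrays read 5.68, 5.84, 6.11, 5.56 and 5.74 at day 1 and 6.40, 6.75, 7.12, 7.85 and 7.72 at day 3. They read 6.19, 7.39, 6.17, 6.21 and 7.23 at day 7 and 8.27, 8.00, 8.46, 8.68 and 8.91 at day 21. The sham array at 8.14, higher than every BDL array before day 21, is again the one with adrenal genes, and it alone made BDL and sham overlap in a matched comparison.

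The Cpe difference was 0.67 ± 0.40 at day 1, 0.41 ± 0.45 at day 3, 1.37 ± 0.36 at day 7 and 3.19 ± 0.36 at day 21. That of day 3 turned on which sham array was kept: leaving out sham replicate 2 gave 1.79, and leaving out replicate 1 gave -0.97. That array enters no mean of the BDL steps, though it does enter the variance pooled over all groups behind their SE and p. Within BDL, Cpe rose from day 1 to day 3 by 1.38 ± 0.34 (adjusted p = 0.00638, limma) and from day 7 to day 21 by 1.83 ± 0.34 (adjusted p = 0.00515), each time with all 5 later arrays above all earlier ones. Between days 3 and 7 it moved by -0.53 ± 0.34 (adjusted p = 0.435), with 2 of the day 7 arrays at 7.23 and 7.39 and 3 between 6.17 and 6.21. Both calls held in each of the 10 leave-outs of a single array of the groups compared, with adjusted p up to 0.0248 and 0.0244 (limma). The BDL arrays of these steps entered the choice of Cpe, whose greatest shift was at day 21. Its p-values are therefore descriptive, and the leave-outs are not independent support.

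**Figure D3:**
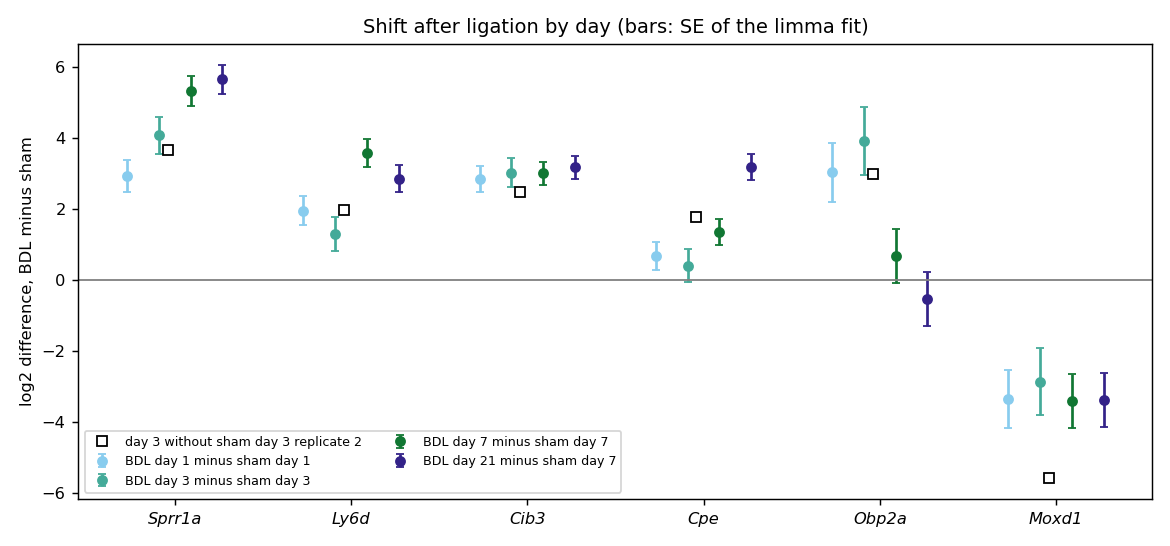
Log2 difference of BDL minus sham for each gene at days 1, 3, 7 and 21 (day 21 against sham day 7), with bars for the SE of the fit and open squares for day 3 without sham day 3 replicate 2. Leaving that array out moves Cpe from 0.41 to 1.79 and Moxd1 from -2.87 to -5.59.

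Obp2a was highest at BDL days 1 and 3, mixed at day 7 and low at day 21. Sham arrays read 6.29, 7.35 and 6.07 at day 1, 7.62 and 5.72 at day 3, and 4.94, 5.57, 7.38 and 6.24 at day 7. BDL arrays read 7.32, 9.75, 9.76, 10.6 and 10.6 at day 1 and 8.17, 10.0, 12.0, 11.8 and 10.9 at day 3. They read 5.05, 4.90, 8.05, 7.70 and 7.81 at day 7 and 5.38, 4.83, 7.01, 5.10 and 5.18 at day 21. At day 3 all BDL arrays were above sham, at day 1 4 of 5 were, and at days 7 and 21 the groups overlapped, with 3 of 5 day 7 arrays above sham day 7 and 1 of 5 day 21 arrays below it.

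The Obp2a difference was 3.04 ± 0.84 at day 1, 3.93 ± 0.96 at day 3, 0.67 ± 0.77 at day 7 and -0.54 ± 0.77 at day 21. From BDL day 3 to day 7 it fell by 3.89 ± 0.72 (adjusted p = 0.00143, limma), a 14.9-fold drop, with all 5 day 7 arrays below all day 3 arrays. The fall passed the test in each of the 10 leave-outs of a single array, at adjusted p up to 0.00675. From day 1 to 3 it moved by +0.99 ± 0.72 (adjusted p = 0.356) and from day 7 to 21 by -1.21 ± 0.72 (adjusted p = 0.761). The BDL arrays of these steps entered the choice of Obp2a, so its p-values and leave-outs are descriptive. Arrays of a group scattered widely: the SD was 1.35 at BDL day 1, 1.57 at day 3 and 1.58 at day 7, and day 7 split into 2 arrays at or under 5.05 and 3 at or above 7.70.

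Moxd1 was the only member that was lower in BDL at every day. Sham arrays read 9.35, 8.66 and 7.49 at day 1, 9.70 and 4.26 at day 3, and 4.29, 9.28, 7.75 and 7.98 at day 7. BDL arrays read 4.57, 6.16, 4.57, 4.05 and 6.35 at day 1 and 4.58, 4.29, 3.85, 4.06 and 3.77 at day 3. They read 3.48, 4.23, 3.97, 4.15 and 3.71 at day 7 and 3.94, 3.95, 4.18, 3.96 and 3.71 at day 21. From day 3 on all 15 BDL arrays were under the filter level, and the gene was not told apart from background there.

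The sham arrays of Moxd1 fell into 7 between 7.49 and 9.70 and 2 at 4.26 and 4.29. Those 2 are the array with adrenal genes and the array with raised collagen. The Moxd1 difference was -3.36 ± 0.83 at day 1, -2.87 ± 0.95 at day 3, -3.42 ± 0.76 at day 7 and -3.38 ± 0.76 at day 21. At day 3 it was -5.59 once sham replicate 2 was left out, and -0.15 once replicate 1 was. Without sham day 7 replicate 1 it was -4.43 at day 7 and -4.39 at day 21. The step from BDL day 1 to 3, -1.03 ± 0.72, did not pass the test (adjusted p = 0.329, limma), and the later steps were -0.20 ± 0.72 (adjusted p = 0.928) and +0.04 ± 0.72 (adjusted p = 0.999). These SE values rest on variance pooled over all 7 groups, not on the BDL arrays alone. The SD was 0.94, 3.85 and 2.13 at sham days 1, 3 and 7. In BDL it was 1.04, 0.33, 0.31 and 0.16 at days 1, 3, 7 and 21.

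Set together, the tested steps within BDL called 1 of the 6 genes from day 1 to 3 (Cpe), 2 from day 3 to 7 (Sprr1a up, Obp2a down) and 1 from day 7 to 21 (Cpe). Over all genes tested the same steps called 18.5%, 5.69% and 0.864%. The BDL arrays of these steps entered the choice of the 6 genes, so nothing is read from the member counts. Within sham limma called no member at day 1 against day 7 (0 of 6 at an unadjusted p under 0.05) or at day 3 against day 7 (2 of 6 at that level). Of all genes, 4.11% were called in the first of these, and 0% in the second, where 627 had an unadjusted p under 0.05. The greatest sham steps among the members were those of Cpe (+1.49 ± 0.47) and Ly6d (+1.46 ± 0.50) at day 3 against day 7 (adjusted p = 1.00 for each). Without sham day 3 replicate 1, which leaves the array with adrenal genes alone, Cpe was at +2.87, a difference that rests on that lone array.

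**Figure D4:**
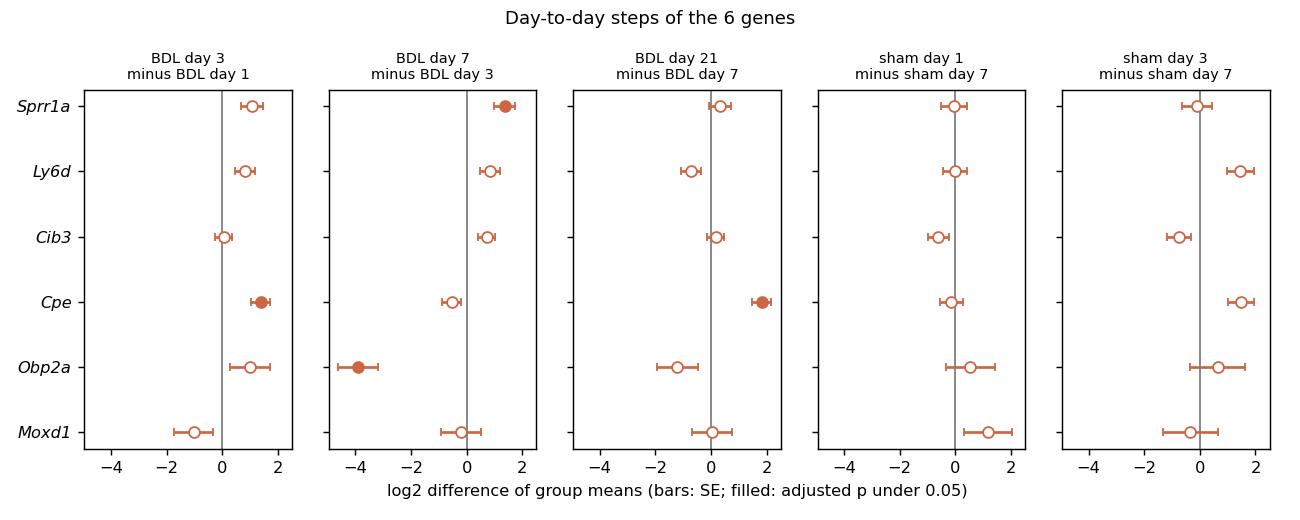
Log2 difference between successive BDL days and between sham days for the 6 genes, with bars for the SE and filled points for an adjusted p under 0.05 (limma). Cpe is called from day 1 to 3 and from day 7 to 21, and Sprr1a (up) and Obp2a (down) from day 3 to 7.

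Whether the kin of each gene moved with it was asked with 6 family lists, tested over all genes. For the whole table, limma called 8.52% of genes higher and 4.8% lower at day 1, 6.47% and 3.69% at day 3, 14.2% and 4.97% at day 7, and 17.3% and 7.9% at day 21. The median difference over all genes was 0.02, 0.02, 0.03 and 0.02 at the successive days. Together the lists have 16, 15, 25 and 33 called genes, with Pam, which stands in a pair of lists, counted once.

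Of the cornified envelope and SPRR family, 17 genes were measured and 5 tested. Of those 5, 1 was higher at day 1, 1 at day 3, 2 at day 7 and 1 at day 21, and none was lower; the list medians were 0.07, 0.09, 0.03 and -0.01. The called genes were Ppl, periplakin, which links keratin filaments to the cell edge (1.90 ± 0.21, 2.09 ± 0.25, 1.96 ± 0.20 and 1.65 ± 0.20), and, at day 7, Tgm1, a transglutaminase that builds the cornified envelope (0.93 ± 0.22, adjusted p = 0.0027). The nearest relative, Sprr1b, stayed between 4.00 and 5.25 in all arrays and was not tested. Of 13 measured markers of squamous epithelium 3 were tested, and limma called 0 of them at any day (0 at an unadjusted p under 0.05); the other 10, among them Krt14, Trp63 and Krt6a, reached at most 5.18.

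Of the Ly6 and uPAR family, 17 of 30 measured genes were tested. At day 1, 2 were higher and 2 lower; at days 3 and 7, 2 were higher, and at day 21, 4 were higher, with none lower. List medians were -0.08, -0.04, 0.01 and 0.05. Ly6e, a widely expressed member induced by interferon, rose by 0.75 ± 0.24 at day 1 and 1.05 ± 0.22 at day 21, and Plaur, the urokinase receptor, by 0.74 ± 0.18 and 1.10 ± 0.16. Cd59a, an inhibitor of the complement pore, fell at day 1 (-1.13 ± 0.33, adjusted p = 0.021), and Ly6c2, a monocyte marker, rose at day 21 (1.14 ± 0.38, adjusted p = 0.025). Ly6k, another small Ly6 protein, differed by -0.16 to 0.04 with no call, and Psca reached at most 4.62.

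Of the CIB family and related calcium sensors, 11 of 16 measured genes were tested, and limma called none at days 1, 3 and 7 (2, 2 and 1 at an unadjusted p under 0.05). At day 21, 1 was higher, Hpcal1, a neuronal-type calcium sensor (0.49 ± 0.14, adjusted p = 0.012). The list medians were 0.01, -0.13, -0.06 and -0.04. Cib1, the broadly expressed relative, differed by 0.22 ± 0.11 at day 1 (adjusted p = 0.19) and by -0.04 ± 0.10 at day 21 (adjusted p = 0.82), and Cib4 reached at most 4.67.

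Of the prohormone processing enzymes and basic carboxypeptidases, 15 of 19 measured genes were tested. Higher calls numbered 3, 0, 5 and 7 over the successive days and lower calls 0, 2, 1 and 1, with medians of 0.06, 0.10, 0.07 and 0.30. Cpxm1, a carboxypeptidase-like protein of the matrix, rose by 0.88 ± 0.20 at day 7 and 1.61 ± 0.20 at day 21. Pam, the copper enzyme that amidates peptide ends after Cpe has acted, rose by 0.70 ± 0.13 and 1.00 ± 0.13. Cpd, a carboxypeptidase of the trans-Golgi network, rose by 0.61 ± 0.19 at day 1 and 0.88 ± 0.17 at day 21, and Cpm, its surface counterpart, by 0.42 ± 0.14 at day 7. The granule proteins Pcsk1 and Scg5 stayed at or under 4.07.

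The 2 lower calls at day 3 were the granule proteins Chga (-1.21 ± 0.37) and Scg2 (-1.17 ± 0.27). Both were high in the sham array with adrenal genes, at 7.66 and 7.22, against at most 5.58 and 5.36 in the other sham arrays. Without that array the differences were 0.12 and -0.21. The lone sham array left is assumed to vary like the other groups, so whether the calls hold cannot be decided.

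Of the lipocalin family, 17 of 25 measured genes were tested. Higher calls numbered 2, 5, 6 and 5 and lower calls 1, 1, 4 and 6, with medians of -0.03, 0.03, -0.08 and -0.10. Lcn2, which binds bacterial iron carriers and is made in the acute phase, differed by 1.23 ± 0.43 at day 1 (adjusted p = 0.054), then rose by 2.42 ± 0.49, 2.95 ± 0.39 and 2.97 ± 0.39. Orm3, an acute-phase glycoprotein, rose by 1.72 ± 0.56 at day 1 and 3.16 ± 0.51 at day 21. Mup21 and Mup3, urinary carriers of pheromones, fell by 5.68 ± 0.33 and 3.63 ± 0.18 at day 21; Mup genes have near-identical copies and their values are uncertain. Lcn2 and Orm3 were still called higher at day 21, when the Obp2a difference was -0.54 ± 0.77, and Obp2b reached at most 4.76.

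Of the copper monooxygenases and copper handling genes, 11 of 13 measured were tested. Higher calls numbered 3, 3, 6 and 7 and lower calls 2, 1, 0 and 2, with medians of 0.29, 0.33, 0.43 and 0.51. Steap4, a metalloreductase, rose by 2.13 ± 0.21 at day 1 and 1.42 ± 0.19 at day 21. Mt2, a metallothionein, rose by 1.83 ± 0.54 at day 7 and 1.93 ± 0.54 at day 21, and Mt1 by 1.26 ± 0.41 and 1.40 ± 0.41. Moxd2 reached at most 4.10, and Dbh exceeded 5 in 1 array, the sham array with adrenal genes, at 5.96. Of these close enzyme kin of Moxd1, Pam alone was tested.

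**Figure D5:**
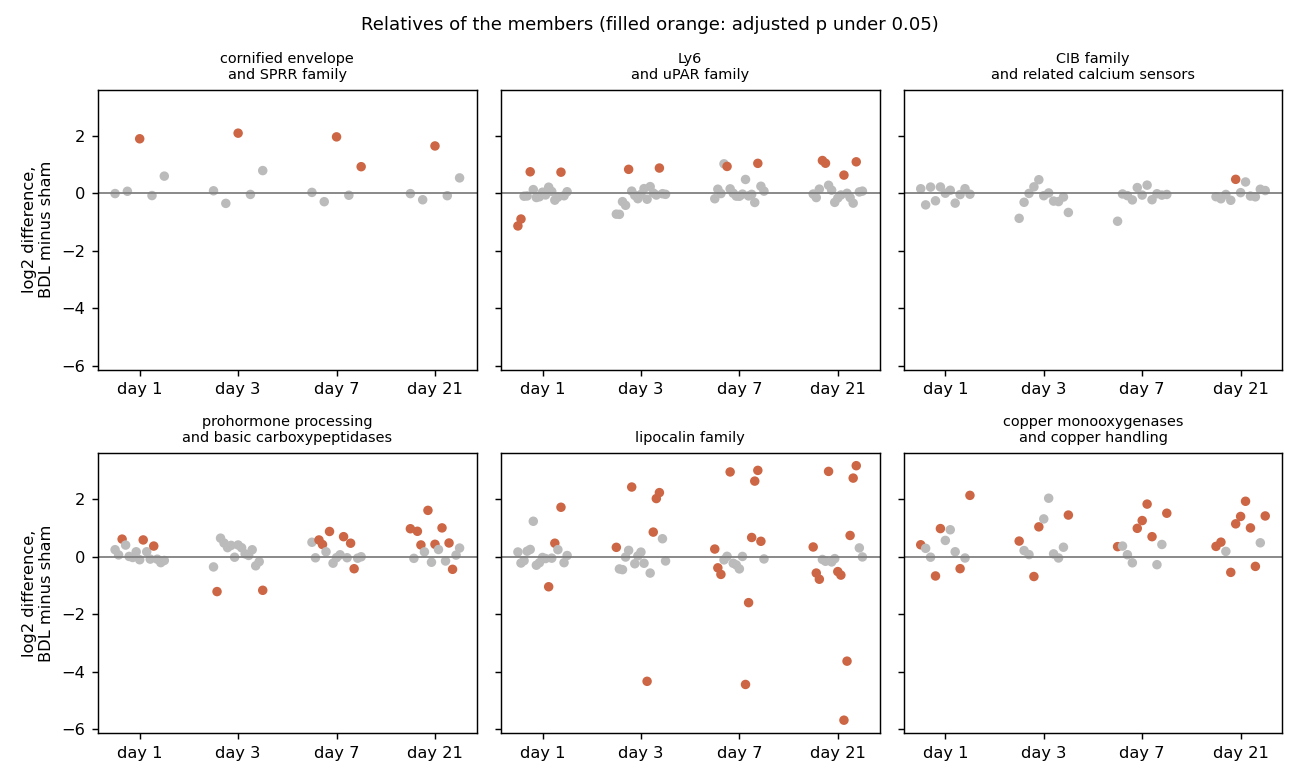
Log2 difference of BDL minus sham for the tested genes of the 6 family lists at each day, each point a gene, orange where the adjusted p was under 0.05 (limma). The calcium sensor list has 1 call over the 4 days, while the lipocalin list runs from -5.68 (Mup21, day 21) to 3.16 (Orm3, day 21).

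Markers of other liver cells moved on the same arrays. Of 12 cholangiocyte markers tested, 2 were higher at day 1, 8 at day 3, 10 at day 7 and 10 at day 21, with 1, Onecut1, lower at the last; Prom1, prominin, a surface protein of duct cells, rose most (2.06 ± 0.29 at day 21). Their summed level was 9.65 to 11.2 in sham and 9.82 to 11.0 in BDL, but single markers differed in this: named after their values were seen, Sox9, a duct transcription factor, read at most 8.04 in sham and at least 8.10 in BDL, while Onecut1, also a transcription factor, read 7.03 to 10.9 in sham and 6.90 to 8.67 in BDL. Of 12 macrophage markers, 5 were higher and 1 lower at day 1, 6 higher at day 3, and 12 at days 7 and 21; Gpnmb, which marks macrophages loaded with lipid, rose by 3.79 ± 0.34 at day 3. Of 12 neutrophil markers, 7, 4, 6 and 7 were higher and none lower, with a summed level of 8.51 to 8.80 in sham and 9.11 to 10.1 in BDL, so that no array overlapped; Itgam, an integrin chain that stands in the macrophage list too, rose most (1.93 ± 0.22 at day 21). Of 10 markers of sinusoidal endothelium, 7, 2, 0 and 3 were lower and 0, 0, 1 and 1 higher, led by Dnase1l3, a nuclease (-1.46 ± 0.27 at day 1). From BDL day 1 to day 3, 9 of those 10 rose. Of 15 stellate cell and fibroblast markers, 0 (3 at an unadjusted p under 0.05, limma), 4, 12 and 13 were higher, and Col1a1 rose by 2.71 ± 0.51 at day 21.

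The summed fibroblast level was 10.5 to 11.1 at BDL day 1 and 12.6 to 13.2 at day 21. In sham it was 10.6 to 11.5, apart from the array with raised collagen at 12.5. The macrophage sum was 10.9 to 12.0 at BDL day 1 and 12.5 to 13.1 at day 21, beside 11.0 to 11.7 in sham. Of 14 male-biased hepatocyte genes, 7, 8, 9 and 12 were lower, led by Slco1a1, an organic anion uptake carrier (-6.93 ± 0.34 at day 21). Their sum, carried by the brightest genes, was 14.7 to 15.3 in sham and 13.5 to 14.6 in BDL. It read 15.2 and 14.8 in sham day 3 replicate 2 and sham day 7 replicate 1, where Moxd1 was low. Single genes differed: in the first array 4 of the 14 lay above the other 8 sham arrays and 0 below. In the second array 0 lay above them and 4 below. Of 13 measured circadian clock genes, 0 lay above and 3 below in the first array, and 0 above and 1 below in the second. Hlf, ranked below among the genes most like Moxd1, read 7.65 and 7.69 there. Those were its lowest sham values, and the highest was 8.40. The part of these genes was not tested. B cell and plasma cell markers, for which Ly6d is known, had no limma call at days 1 and 3 (2 and 0 at an unadjusted p under 0.05), 1 lower at day 7, and 1 higher (Jchain) and 1 lower at day 21, out of 6. Neuroendocrine markers, where Cpe is known, had no higher call out of 7 at any day and 1, 3, 0 and 1 lower ones (2, 3, 1 and 2 at an unadjusted p under 0.05 in either direction). The 3 at day 3 were Chga, Scg2 and Syt1, a synaptic vesicle protein. Without the sham array with adrenal genes, Chga and Scg2 moved to 0.12 and -0.21, as given above. The Syt1 difference was -0.88 with both sham arrays, -1.02 without that array and -0.74 without sham day 3 replicate 1. Fits that leave a lone sham array cannot decide whether any of these 3 calls holds. Of 10 hepatocyte markers 1, 3, 3 and 2 were lower and 1 was higher, at day 3. Fabp1, a fatty acid carrier, fell most (-3.65 ± 0.38 at day 21), while their sum, carried by the brightest genes, was 16.2 to 16.5. The part of these cell types in the shifts of the 6 genes was not tested.

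The genes most like each member were ranked by Pearson's r over the 29 arrays, which fall into 7 groups and share the operation, so r mostly reflects group levels. For Sprr1a they were Nrg1 (0.97), a growth factor of the EGF family, and Cstb, Gnai2, Tmem176b and Myl12b (0.95 to 0.96). For Cib3 Nrg1 led again (0.95), ahead of Mtmr11, Rhoc, Tm4sf4 and Nid1 (0.93 each or more). Group means of Nrg1 were 5.21 to 5.39 in sham and 6.92, 7.20, 7.99 and 8.06 at BDL days 1, 3, 7 and 21. For Ly6d they were Ccl6 (0.89), a chemokine, Cd68 (0.88), a lysosomal protein of macrophages, and Pgd, Thbd and Ifi27l2b (0.87 to 0.88).

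For Cpe the values were lower: Fam102b (0.86), Slc43a2, Slc25a24, Ddr1 and Myo5a (0.82 to 0.83). For Obp2a Apoa4 led (0.83), an apolipoprotein of lipid-rich particles, followed by Eaf1, Otud6b, Gne and Nrbp2 (0.76 to 0.77). Apoa4 means were 12.2 and 12.8 at BDL days 1 and 3 and 11.3 and 10.9 at days 7 and 21, against 9.91 to 10.9 in sham, and its highest mean was at BDL day 3, as for Obp2a. For Moxd1 they were Cyp2d40 (0.88), Hlf (0.87), a circadian transcription factor, and Vwa8, Hectd3 and Usf3 (0.85 to 0.87). These lists were not stable: with Spearman's coefficient they kept 1 to 3 of 5 genes, and within the 20 BDL arrays 0 to 2.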

How the data were processed

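Liver RNA from 29 samples was read on Affymetrix arrays. The deposited log2 values come from RMA in oligo 1.52.0 (per the submitters' processing notes), a method that subtracts background, equalises distributions and summarises the probes of a row. Gene names were taken from Mouse Gene 2.0 ST annotation, which the row identifiers match, although the protocol in the labels names Mouse Genome 430 2.0; for the build, nothing is stated in the sources used here. Titles carry different animal numbers; replicate numbers are accession order. Differences shrink near background, so folds of low genes are understated.

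The row of highest mean stood for a gene. With limma 3.58.1 (R 4.3.3; lmFit, eBayes) all arrays entered a single linear model of the 7 groups, with two-sided Benjamini-Hochberg values over 14699 genes and a threshold of 0.05. The members and gene lists were chosen with earlier results of these data known. Named were the members, listed close relatives, up to 3 called genes per family list, 5 like genes per member (predicted genes passed over) and the marker of greatest change. Some named relatives (Sprr2a1 to Sprr2a3, Ly6a, Cib2, Pcsk2) were not analysed here. Promoters are from RefSeq. The procedure was tested on simulated data. Arrays have no depth; their number limits precision.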

Additional observations from a re-analysis of the deposited data

Results flagged for a closer look

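Of 30 groups of 4 or 5 arrays looked at, 3 held an array far from the others by Dixon's ratio, and chance gives about 1 in 20. Cib3 at BDL day 21 had its lowest array, replicate 3, at 9.85, with the other 4 between 10.6 and 10.8. Obp2a at BDL day 1 had its lowest array, replicate 1, at 7.32, with the other 4 between 9.75 and 10.6. Obp2a at BDL day 21 had its highest array, again replicate 3, at 7.01, with the other 4 between 4.83 and 5.38.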

How the results depend on the processing

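No paired analysis was possible because replicate numbers are accession order and titles carry different animal numbers. Loess scaling, no filter and the mean of a gene's rows (each member has 1) changed no call and no direction. Without the 4 day 1 arrays that stood apart, day 1 differences were 4.06 for Sprr1a and 1.95 for Cib3. With all 9 sham arrays as reference, Ly6d was 2.43 at day 3 and Cpe 0.24 at day 1 and 1.62 at day 3; against sham day 7, an alternative chosen after seeing the data, day 3 gave 2.75 for Ly6d, 2.29 for Cib3 and 1.90 for Cpe. A filter of 6 called the Sprr1a step from day 1 to 3 (1.08, adjusted p = 0.0468, limma), trend and robust variance lost that from day 3 to 7 (1.36, adjusted p = 0.0576), and fitting only the groups compared called Cib3 from day 3 to 7 (0.72, adjusted p = 0.0223). The causes were not tested.

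Genes called for BDL against sham at day 1 (1958) numbered 704 with only those groups, 597 without the 4 arrays and 3198 with all sham arrays; at day 3 (1493) 921 and 3481 with the first and last, and at day 7 (2819) 4375 with the last. For BDL day 3 minus day 1 (2715) they were 1779 with only those groups, 1479 with the 4 arrays modelled as a set and 1444 without them; for day 7 minus 3 (837) 1284 and 1308 with the latter 2; for day 21 minus 7 (127) 235 with only those groups; and for sham day 1 minus 7 (604) 0, 1 and 1. Called relatives at day 1 (16) were 7 and 7 with only those groups and without the 4, and at day 3 (15) 25 with all sham arrays.

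Leaving out single arrays gave, at day 3 against sham, -0.97 to 1.79 for Cpe, -5.59 to -0.15 for Moxd1 and 2.47 to 3.58 for Cib3, the extremes being sham day 3 replicates 1 and 2 (the lone array left is assumed to vary like the other groups, here and in the counts); steps of 0.76 to 1.38 (Sprr1a, day 1 to 3), 1.06 to 1.54 (Sprr1a, day 3 to 7), 0.56 to 1.13 (Ly6d, day 1 to 3) and 0.11 to 2.87 (Cpe, sham day 3 minus 7); called genes of 1268 to 2750 at day 1 (sham replicates 1 and 3), 668 to 1692 at day 3 (both sham arrays), 1718 to 3054 for day 3 minus 1 (BDL day 1 replicate 3), 472 to 964 for day 7 minus 3 (BDL day 3 replicate 5, day 7 replicates 3 and 5), 59 to 133 for day 21 minus 7 (BDL day 21 replicates 3, 4 and 5, day 7 replicates 1 and 3), 2 to 3040 for sham day 1 minus 7 (each of the 7) and 0 to 35 for sham day 3 minus 7 (day 3 replicates 1 and 2); and called relatives of 8 to 15 at day 1 (BDL replicate 5, sham replicate 3) and 6 to 18 at day 3 (sham replicate 2). The Sprr1a step from day 1 to 3 passed without BDL day 1 replicate 1, 4 or 5 or day 3 replicate 1. Those day 1 replicates were the highest of their group. The step is smaller without BDL day 1 replicates 2 and 3, which stood apart and were the lowest.

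Of the 5 most like genes, Spearman's coefficient kept 1 for Sprr1a, Ly6d, Cib3 and Moxd1, 2 for Cpe and 3 for Obp2a; the 20 BDL arrays alone kept 0, except 1 for Cpe and 2 for Obp2a; and values less the group mean, chosen after seeing the data, kept 0, except 1 for Moxd1. Sprr1a in sham and Moxd1 in BDL lie near background, which limits the size of their shifts.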
